A study of Mus musculus with 6 samples.

Results

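The 6 libraries of basolateral amygdala RNA fell into 2 groups of 3 that differed in how much choroid plexus RNA they held, whatever their stress label. The groups were chosen by the raw count of Ttr, which encodes the thyroid hormone carrier transthyretin: 3 libraries held more than 10000 counts and 3 held fewer than 1000. The high group was control 1, control 2 and stress 2, and the low group was control 3, stress 1 and stress 3, so that 6 of 6 libraries were used and each label occurred in both groups. The lowest Ttr count above the upper bound was 21408, in control 1, and the highest count below the lower bound was 185, in control 3. Because Ttr itself made the groups, every difference between them is given as a description, with the values of each library and without a test.

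All animals were male mice, and the tissue was the basolateral amygdala, the cortex-like division of the amygdala in which fear is learned. The controls were not stressed, and the other 3 animals had been through chronic restraint stress, a protocol of repeated confinement. The sources used here give neither strain, age nor the length of restraint. Total RNA was depleted of ribosomal RNA and made into stranded, single-end libraries, 1 for each of 3 biological replicates per label. A dissected tissue holds whatever lies within the piece that was taken, and in bulk RNA more cells of a type and more RNA per cell cannot be told apart.

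The choroid plexus is a fold of epithelium around leaky capillaries that hangs into the brain's ventricles and secretes cerebrospinal fluid. Its epithelial cells make very large amounts of transthyretin and carry the pumps, channels and carriers that move ions, water and folate into the fluid. The ventricle's wall is lined by ependymal cells, which beat motile cilia, and in the temporal part of the brain the lateral ventricle runs close to the amygdala, the hippocampus and the tail of the striatum.

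Counts in genes were alike in the libraries, from 9859449 to 10233706. Reads placed in no gene were 53.0 to 55.4% in the high group and 54.8 to 57.4% in the low group. The factors that scale library size (TMM) did not overlap between the groups, at 1.01 to 1.02 in the high group and 0.983 to 0.993 in the low group. After genes with low counts were removed, 14739 genes were compared. Levels are CPM, a gene's counts relative to its library's scaled total, which are not corrected for gene length and so compare libraries, not genes. In each sentence of values the high group is given as control 1, control 2 and stress 2, and the low group as control 3, stress 1 and stress 3. The difference is the mean log2 CPM of the high minus that of the low libraries, after a prior count of 2 was added. A gene is called apart when the groups do not overlap and differ at least 2-fold, and separate when they do not overlap at any size of difference.

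The 5 marker genes given for the choroid plexus were all apart (2.08% of all genes were apart and higher). For Ttr this was set by the choice of the groups. Ttr stood at 2125, 3772 and 5545 CPM in the high libraries and at 18.9, 2.87 and 8.33 CPM in the low libraries. Kl, which encodes the ageing-related hormone co-receptor klotho, stood at 105, 186 and 208 CPM against 9.59, 8.20 and 7.44 CPM. Folr1, the folate receptor that loads folate into the cerebrospinal fluid, stood at 17.9, 30.2 and 43.3 CPM against 0.612, 0.103 and 0.0992 CPM. For these 3 genes control 1 was the lowest of the high libraries and stress 2 the highest. Clic6, an intracellular chloride channel protein, stood at 46.1, 83.3 and 92.1 CPM against 7.04, 0.410 and 5.45 CPM. Kcnj13, the inward rectifier potassium channel Kir7.1, stood at 36.2, 63.9 and 77.9 CPM against 1.94, 0.103 and 0.496 CPM. The same order of the high libraries recurred in Clic6 and Kcnj13, and in neither did the groups overlap.

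As group means, Ttr was 3814 ± 1710 CPM in the high and 10.03 ± 8.14 CPM in the low libraries (SD, n = 3 each), a log2 difference of 8.80. Kl was 166 ± 53.9 against 8.41 ± 1.09 CPM (SD, n = 3 each), a log2 difference of 4.22. The log2 differences were 6.10 for Folr1, 4.60 for Clic6 and 6.21 for Kcnj13. Ttr alone took 0.212, 0.377 and 0.554% of the scaled library total in the high libraries, and 0.00189% or less in each low library.

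**Figure D1:**
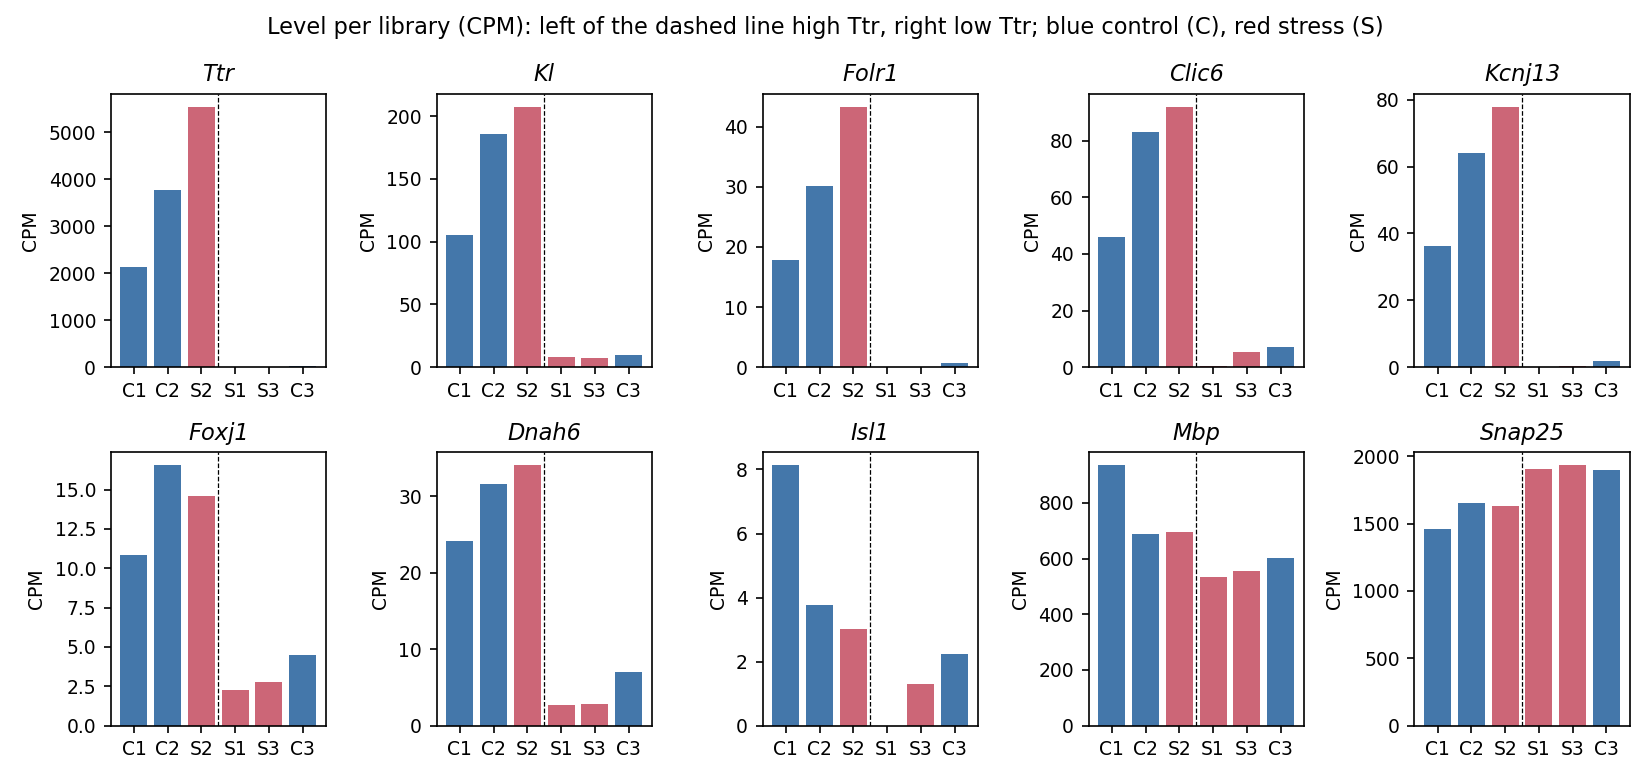
Levels in each library as CPM on linear axes from 0, 1 bar per library, for the 5 choroid plexus markers (top) and for Foxj1, Dnah6, Isl1, Mbp and Snap25 (bottom). High-Ttr libraries stand left and low-Ttr libraries right of the dashed line, controls in blue and stressed animals in red; each marker's 3 high bars exceed its 3 low bars, Isl1 and Mbp are highest in control 1, and Snap25 is lower in the high libraries.

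Over all genes tested the groups did not overlap for 3069 genes (20.8%), of which 1751 (11.9%) were higher and 1318 (8.94%) lower in the high libraries. At 2-fold the picture was one-sided: 307 genes (2.08%) were apart and higher, and 7 genes (0.0475%) were apart and lower. The median log2 difference of all genes was 0.01. The 307 genes together made up 0.744, 1.12 and 1.40% of the scaled library total in the high libraries and 0.196, 0.111 and 0.200% in the low libraries. Without Ttr these shares were 0.532, 0.743 and 0.847% against 0.194, 0.111 and 0.200%.

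**Figure D2:**
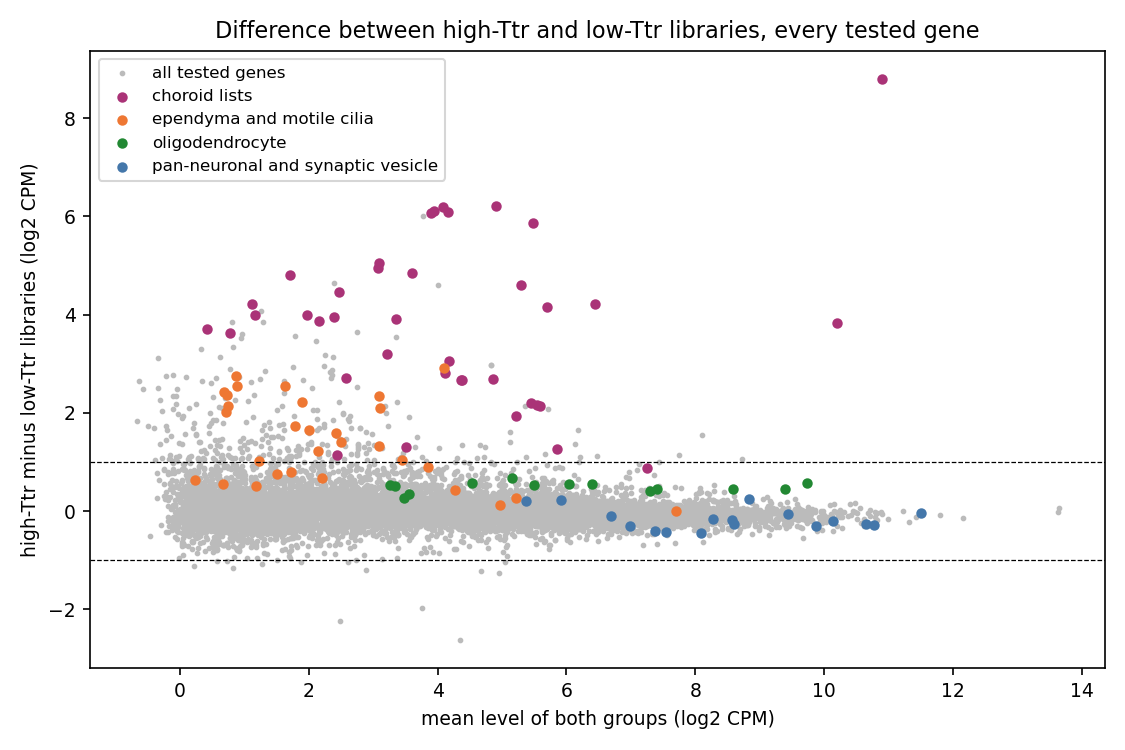
Log2 CPM difference between high-Ttr and low-Ttr libraries (y axis) against the mean level of both groups as log2 CPM (x axis) for the 14739 genes tested. Each point is a gene, grey or coloured by gene list, and the dashed lines mark 2-fold; Ttr lies at 8.80, most choroid list genes lie above the upper line, and the oligodendrocyte and pan-neuronal genes lie between the lines.

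The transport genes of the choroid plexus list were higher in the high libraries throughout. All 15 members passed the filter and all 15 were apart (2.08% of all genes were apart and higher), with a median log2 difference of 4.22. Slc4a5, a sodium bicarbonate cotransporter of the epithelium's surface, stood at 21.1, 33.4 and 46.8 CPM against 0.510, 0.205 and 0.0992 CPM, a log2 difference of 6.19. Aqp1, the water channel, stood at 15.7, 22.6 and 33.1 CPM against 0.918, 0.718 and 0.298 CPM, a log2 difference of 4.84. Kcne2, a potassium channel subunit, stood at 9.13, 17.8 and 22.7 CPM against 0.510, 0.103 and 0.397 CPM, a log2 difference of 4.96. In these 3 genes the lowest high library was at least as far from the highest low library as the high libraries were from each other on a log scale. Slc4a2 and Car12 were less far apart. Slc4a2, an anion exchanger, stood at 52.2, 69.0 and 96.1 CPM against 17.2, 14.0 and 14.3 CPM. Car12, a membrane carbonic anhydrase, stood at 57.1, 81.1 and 91.0 CPM against 20.5, 13.9 and 15.8 CPM. The smallest difference of the list was that of Slc29a4, a monoamine transporter, at 11.6, 19.9 and 17.6 CPM against 6.12, 5.84 and 7.14 CPM.

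Some members were near 0 in the low libraries, where a ratio is loose. These members passed the filter through the high libraries alone, so their being higher was close to set by the filter. Steap1, a metalloreductase, had 198 counts in the high and 1 count in the low libraries, a ratio of 193 with an exact 95% counting interval of 34.3 to 7675. Slc16a8, a lactate carrier, had 130 counts against 1, a ratio of 127 with an interval of 22.4 to 5052. These intervals cover counting error and leave out the spread between animals.

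Among secreted proteins and receptors 18 of 19 members were apart (2.08% of all genes were apart and higher), with a median log2 difference of 3.91. Ttr, which made the groups, is among the 18. Enpp2, the enzyme autotaxin that makes the lipid signal lysophosphatidic acid, stood at 1328, 2370 and 2884 CPM against 188, 130 and 130 CPM. Each low library still held over 100 CPM of Enpp2, which oligodendrocytes also make. F5, coagulation factor V, stood at 54.0, 97.8 and 113 CPM against 2.45, 0.615 and 1.19 CPM. Prlr, the prolactin receptor, stood at 64.1, 114 and 119 CPM against 4.29, 4.82 and 6.74 CPM. Ecrg4, a secreted precursor protein of the epithelium, stood at 21.8, 37.6 and 47.2 CPM against 0.306, 0.205 and 0.397 CPM, a log2 difference of 6.10. Tmem72, a membrane protein, had a log2 difference of 6.08 and no count in stress 3. Igf2, a growth factor that choroid plexus and meninges release, stood at 52.2, 85.3 and 95.2 CPM against 30.8, 9.84 and 15.8 CPM. Within the low group Igf2 was highest in control 3.

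The member of the choroid lists that was not apart was Htr2c, the serotonin 2C receptor. It stood at 173, 200 and 203 CPM in the high libraries and at 98.9, 65.1 and 174 CPM in the low libraries. Stress 3 overlapped the high group, and the log2 difference was 0.88. Neurons of the amygdala also express this receptor, and the libraries do not tell the sources apart.

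All 5 transcription factors and keratins of the choroid list were apart (2.08% of all genes were apart and higher), with a median log2 difference of 3.72. All but Msx1 passed the filter through the high libraries alone, so their being higher was close to set by the filter. Otx2, the homeobox factor that specifies and maintains the choroid plexus, stood at 9.73, 20.04 and 20.4 CPM against 0.510, 0.205 and 0.198 CPM. Lmx1a, a homeobox factor of the roof plate from which the plexus develops, stood at 1.39, 2.32 and 4.32 CPM and had no count in the 3 low libraries. Against a floor of 3 counts over the low libraries together, Lmx1a was at least 26.5-fold higher. With Lmx1a at that bound the list's median was 3.87. Krt18 and Krt8, the keratin pair of simple epithelia, were higher by log2 differences of 3.87 for Krt18 and, from 101 counts against 3, by a ratio of 32.9 with an interval of 10.9 to 162 for Krt8.

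Genes of the ventricle's wall went the same way with smaller differences. In the list of ependyma and motile cilia genes 30 of 31 members passed the filter. Of these 26 were separate and higher (11.9% of all genes were), 19 were apart (2.08% of all genes were apart and higher) and none was lower. The list's median log2 difference was 1.37, against 4.22, 3.91 and 3.72 for the 3 choroid lists. Dnah6, a heavy chain of the dynein motor that bends cilia, stood at 24.1, 31.7 and 34.1 CPM against 7.04, 2.67 and 2.78 CPM, a log2 difference of 2.92. Foxj1, the transcription factor that switches on motile cilia genes, stood at 10.8, 16.6 and 14.6 CPM against 4.49, 2.26 and 2.78 CPM, a log2 difference of 2.10. In the low libraries control 3 held the most of both genes.

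Further cilia members ranged widely in level. Pifo, a protein of the ciliary base, stood at 2.88, 3.39 and 3.72 CPM against 0.510, 0.308 and 0.198 CPM, a log2 difference of 2.75. Hydin, a protein of the central pair of microtubules, stood at 9.23, 12.6 and 14.98 CPM against 6.43, 4.10 and 3.87 CPM. Members that were not separate were Dnah5, Drc1, Tekt4 and Rfx3. Rfx3, a factor that drives cilia genes and that neurons also express, stood at 184, 208 and 229 CPM against 199, 197 and 223 CPM, and its groups overlapped. Deup1, which helps build the many basal bodies of such cells, did not pass the filter, with 12, 10 and 7 counts against 4, 2 and 3.

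**Figure D3:**
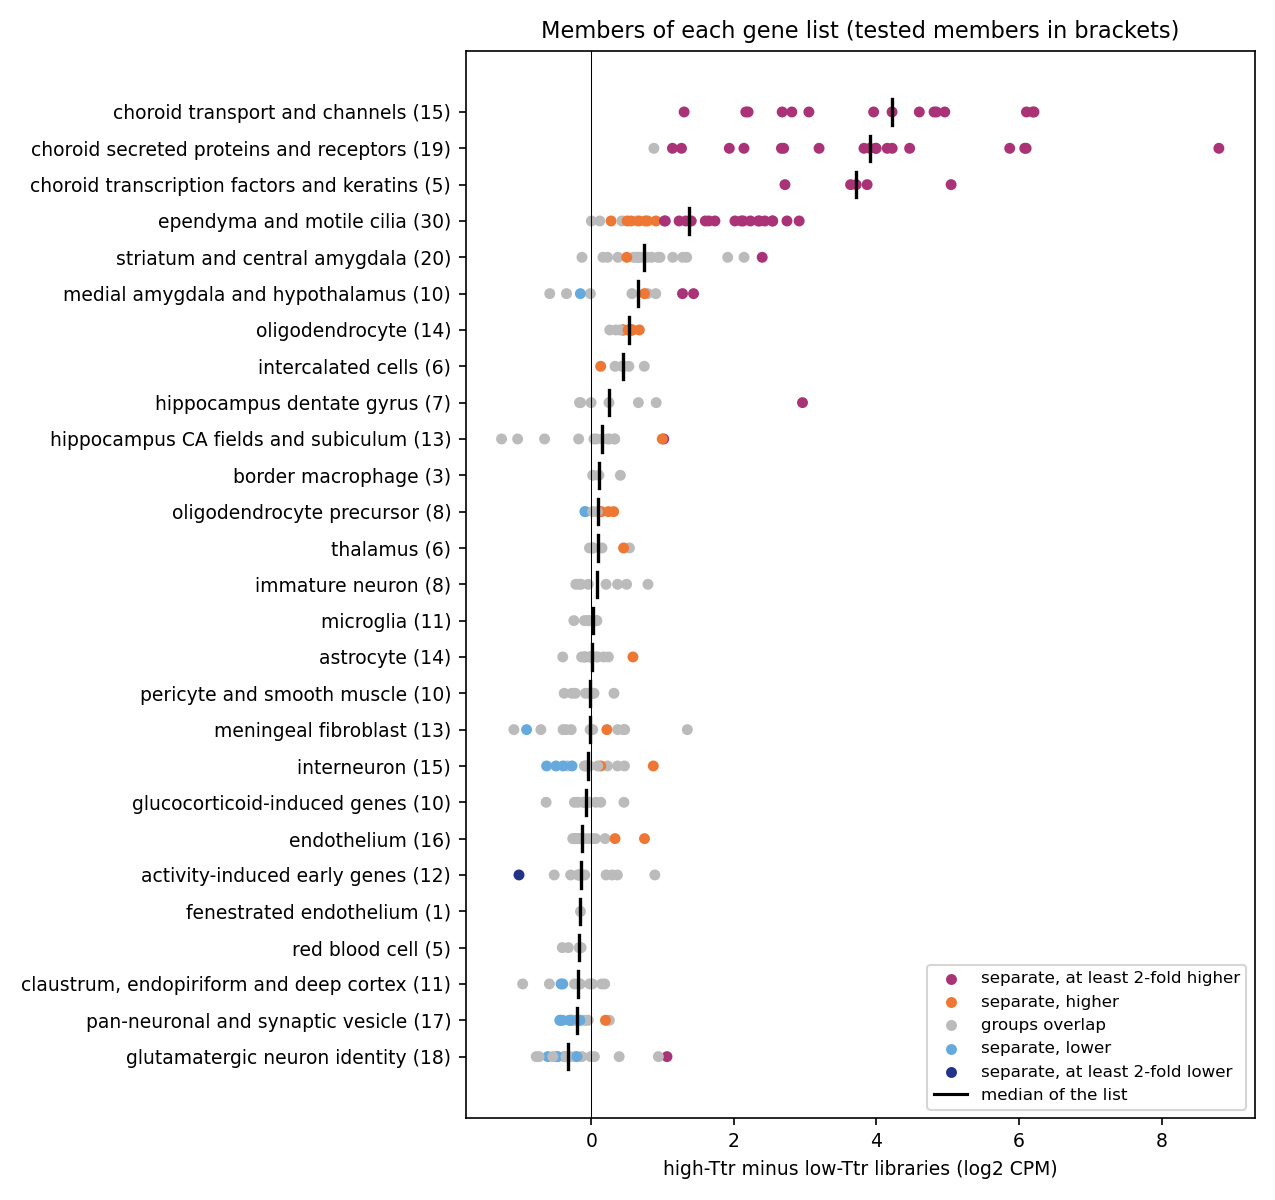
Log2 CPM difference between high-Ttr and low-Ttr libraries (x axis) for the tested members of each of 27 gene lists (y axis, number of members in brackets). Each point is a gene, coloured by whether the groups overlap, and each black bar the list's median; the 3 choroid lists have medians of 4.22, 3.91 and 3.72 and the ependyma and motile cilia list one of 1.37.

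RFX factors bind a sequence called the X-box in the promoters of many cilia genes, and OTX factors bind a core of TAATCC. The 250 bases before each gene's start were searched on both strands, in the RefSeq promoter table of the build GRCm38.p6, for the X-box half-site GTTGCCA and for that OTX core. The half-site was found in 7 of the 27 cilia list members with a promoter in the table (25.9%), in 1 of 31 choroid list members (3.23%) and in 4.19% of all 27025 symbols. The OTX core was found in 2 of 31 choroid list members (6.45%), 2 of 27 cilia members (7.41%) and 7.21% of all symbols. The motifs do not overlap in their letters. A match is a description of the letters and not evidence of binding. The stretches that follow show the half-site in its promoter context for 4 cilia genes, with the half-site in capitals, each on its gene's strand and 5′ to 3′. TGGCAAC is the same site read on the opposite strand.

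Pifo, chr3:106001498-106001547, minus strand: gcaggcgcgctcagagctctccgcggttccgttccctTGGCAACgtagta

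Tekt1, chr11:72361883-72361934, minus strand: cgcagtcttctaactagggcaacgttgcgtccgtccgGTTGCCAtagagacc

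Lrrc23, chr6:124779728-124779803, minus strand: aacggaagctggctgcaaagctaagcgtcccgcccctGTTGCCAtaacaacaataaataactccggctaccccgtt

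Ccno, chr13:112987552-112987626, plus strand: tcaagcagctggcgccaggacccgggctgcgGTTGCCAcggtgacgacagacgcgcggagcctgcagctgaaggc

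The 4 genes behind these stretches were all higher in the high libraries, and 3 of them were apart (2.08% of all genes were apart and higher). All 30 tested members of the cilia list had a difference above 0, as had 7683 of all 14739 genes. Being higher was therefore not particular to the members with the half-site. Tekt1, which encodes a filament protein inside ciliary microtubules, stood at 4.76, 7.07 and 6.64 CPM against 2.04, 2.36 and 1.19 CPM. Lrrc23, part of the radial spokes of the cilium, stood at 4.47, 7.65 and 6.64 CPM against 1.63, 0.820 and 1.09 CPM. Ccno, a cyclin-like protein needed to make many cilia per cell, stood at 1.79, 1.65 and 2.41 CPM against 1.43, 1.23 and 1.09 CPM, which is separate but under 2-fold. The other 3 members with the half-site were Hydin, which was apart, Drc1, whose groups overlapped, and Deup1, which was not tested.

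The high libraries also differed from one another, and the amount of Ttr gave them an order. After the mean of the low libraries was subtracted, Ttr was 1.78 times as high in control 2 and 2.62 times as high in stress 2 as in control 1. Of all genes tested, 19.1% had their high libraries in this order by CPM. Among the 38 apart choroid genes, Ttr included, 35 had it (92.1%), and the exceptions were Slc29a4, Rarres2 and Krt18, which were highest in control 2. The median ratio of stress 2 to control 1 was 2.22 for these genes, with quartiles of 2.10 and 2.498. Among the 19 apart cilia genes 11 had the order (57.9%), and the median ratio was 1.65 with quartiles of 1.495 and 1.89. The ratio of control 2 to control 1 was alike, at 1.79 for the choroid and 1.75 for the cilia genes.

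Levels can also be read as counts per 1000 Ttr counts, although Ttr made the groups. Folr1 stood at 8.41, 8.01 and 7.82 per 1000 in the high libraries and Kcnj13 at 17.0, 16.9 and 14.1. Kl stood at 49.6, 49.2 and 37.5 per 1000 and Foxj1 at 5.09, 4.39 and 2.63. Stress 2 was the lowest of the high libraries for each of these 4 genes, with a span that was narrow for Folr1 and wide for Foxj1. Stress 2 also held the most Ttr, so a low ratio there is partly set by the divisor. In the low libraries, which were chosen for few Ttr counts, so that a larger ratio is set by the choice, the ratios were scattered, with Folr1 at 32.4, 35.7 and 11.9 and Kl at 508, 2857 and 893 per 1000 Ttr. Enpp2 stood at 625, 628 and 520 per 1000 in the high and at 9984, 45214 and 15571 per 1000 in the low libraries. These low-library ratios rest on 185, 28 and 84 counts of Ttr, and those of Folr1 on 6, 1 and 1 counts of Folr1.

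**Figure D4:**
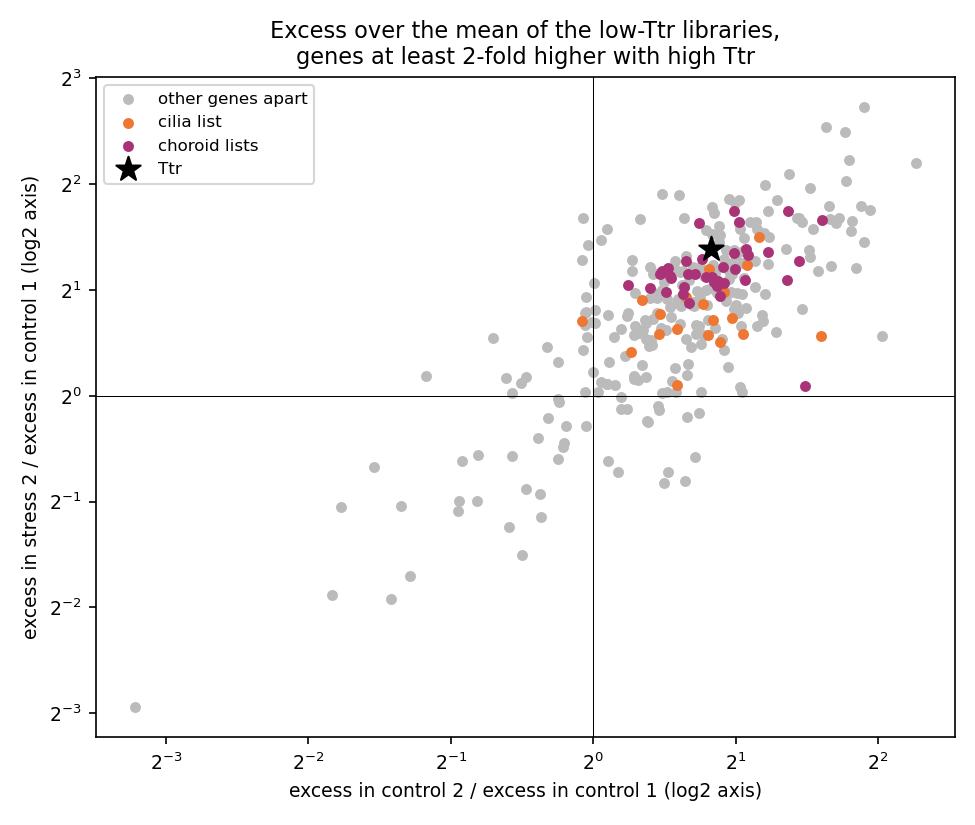
Excess over the mean of the low-Ttr libraries for the 307 genes apart and higher, as the ratio of control 2 to control 1 (x axis) and of stress 2 to control 1 (y axis), both on log2 axes. Each point is a gene and the star is Ttr, at 1.78 and 2.62. The y axis medians are 2.22 for choroid list and 1.65 for cilia list genes, and the points below 1 on both axes are in neither.

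Of the 307 genes 250 were in neither the choroid nor the cilia lists. The genes named next, to the end of the paragraph, were picked after their values were seen, except Cldn2 and Dsp, which the naming rule took. Cldn2, the pore-forming tight junction protein of leaky epithelia, stood at 15.8, 30.8 and 34.8 CPM against 0.510, 0.103 and 0.0992 CPM, a log2 difference of 6.01. Dsp, the desmosomal protein desmoplakin, which is also a marker of dentate granule cells, stood at 5.86, 8.62 and 11.1 CPM against 0.612, 0.923 and 1.19 CPM, a log2 difference of 2.96. Both followed the order of Ttr. Ace, the angiotensin-converting enzyme, stood at 57.3, 93.0 and 106 CPM against 19.8, 19.9 and 18.1 CPM. Trpm3, a cation channel gene, stood at 307, 442 and 463 CPM against 133, 93.0 and 204 CPM. Gmnc, a regulator of the multiciliated cell fate, stood at 6.65, 9.01 and 11.5 CPM against 1.22, 1.33 and 0.992 CPM. Mfrp had a log2 difference of 2.97, and its counts were identical with those of C1qtnf5 in every library, so that the 2 genes cannot be told apart. Lepr, the leptin receptor, stood at 9.03, 13.1 and 14.98 CPM against 8.27, 3.18 and 4.36 CPM, with control 3 close to control 1.

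Some neuronal genes were apart with another order of the high libraries. Of the 250 genes 130 (52.0%) had the order of Ttr, and 27 were highest in control 1, the high library with the least Ttr. Over all genes tested 34.4% were highest in control 1 among the high libraries. No apart member of the choroid or cilia lists was highest there, but these lists do not hold every choroid or cilia gene. Isl1, a homeobox factor of striatal and cholinergic neurons, stood at 8.14, 3.78 and 3.02 CPM against 2.25, 0 and 1.29 CPM. Slc5a7, the choline transporter of cholinergic neurons, stood at 23.4, 6.003 and 6.44 CPM against 5.92, 1.03 and 4.76 CPM. Ngfr, the neurotrophin receptor p75, which basal forebrain cholinergic neurons carry, stood at 5.86, 3.10 and 3.52 CPM against 1.84, 1.23 and 0.893 CPM. For Slc5a7 control 1 stood well above the other 5 libraries, and control 2 and control 3 lay within 0.1 CPM of each other. Slc5a7 and Ngfr were picked after their values were seen.

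The list of striatal and central amygdala genes had a median log2 difference of 0.74, yet 1 of its 20 members, Isl1, was apart (2.08% of all genes were apart and higher). A further member, Prkcd, a kinase of a central amygdala cell class, was separate with a log2 difference of 0.50, and 18 members overlapped. Over all genes 20.8% were separate in either direction. Adora2a, the adenosine receptor of striatopallidal neurons, stood at 82.4, 37.8 and 41.1 CPM against 52.9, 0.718 and 30.6 CPM. Drd1, the dopamine receptor of striatonigral neurons, stood at 107, 56.8 and 53.0 CPM against 57.7, 22.8 and 71.5 CPM. Penk, the enkephalin precursor, stood at 381, 221 and 198 CPM against 226, 29.5 and 230 CPM. In these 3 genes control 1 was the highest library and stress 1 the lowest, and the other 4 libraries, from both groups, lay between them. As the mean of centred log2 CPM over the list, control 1 stood at 1.11 and stress 1 at -1.88, while control 2, control 3, stress 2 and stress 3 stood at 0.14, 0.41, 0.11 and 0.11. Without stress 1 the median difference of the list was 0.15.

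Other regional markers gave single genes. Lypd1, an inhibitor of nicotinic receptors from the glutamatergic list, stood at 584, 519 and 518 CPM against 342, 104 and 484 CPM, and stress 3 lay close to the high libraries. Ecel1, a membrane protease of hypothalamic and striatal neurons, stood at 32.7, 19.2 and 16.8 CPM against 12.9, 4.61 and 11.8 CPM. Trh, the thyrotropin-releasing hormone, stood at 2.78, 3.68 and 2.31 CPM against 1.84, 0.103 and 2.18 CPM. Stress 1 was the lowest library for all 3 genes, and Trh in control 3 and stress 3 lay close to the high libraries. Of 10 tested markers of the medial amygdala and hypothalamus Trh and Ecel1 were the 2 that were apart, 1 was separate and lower, and 6 had a difference above 0. Over all genes 2.08% were apart and higher, 8.94% were separate and lower, and 7683 of 14739 had a difference above 0. The median of the medial amygdala and hypothalamus list was 0.66 over all 6 libraries, but 0.19 within the controls and 0.15 within the stressed animals. Amigo2, an adhesion protein of hippocampal CA2, was the apart member among 13 CA field genes, at 16.4, 23.6 and 16.8 CPM against 8.06, 7.18 and 13.1 CPM. Apart from Dsp, no member of the 7 tested dentate genes was separate. Over all genes 20.8% were separate in either direction, so 1 among 7 is near that share.

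Genes common to neurons were somewhat lower in the high libraries. Of 17 pan-neuronal and synaptic vesicle genes 10 were separate and lower (8.94% of all genes were), 1 was separate and higher and none was apart, with a median log2 difference of -0.20. Snap25, a fusion protein of synaptic vesicles, stood at 1457, 1649 and 1631 CPM against 1896, 1902 and 1935 CPM, a log2 difference of -0.28. Syn1, the vesicle protein synapsin, stood at 139, 164 and 174 CPM against 235, 234 and 177 CPM. Stress 3 lay nearest to the high group for Syn1. The member that was separate and higher was Nefh, the heavy neurofilament, with a log2 difference of 0.20. With library size alone in place of TMM the separate genes over all genes shifted to 2236 higher and 906 lower, and the median of all genes to 0.04.

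Of 18 genes of glutamatergic identity 5 were separate and lower (8.94% of all genes were), and the median log2 difference was -0.33. Slc17a7, the vesicular glutamate transporter of cortical neurons, stood at 718, 933 and 971 CPM against 1083, 1183 and 1108 CPM. Tbr1, a transcription factor of cortical and amygdalar projection neurons, stood at 46.5, 58.2 and 58.8 CPM against 77.2, 78.3 and 71.8 CPM. Satb1 stood at 70.0, 68.9 and 72.3 CPM against 122, 129 and 78.6 CPM. For Slc17a7 and Tbr1 control 1 held the least, and for Satb1, a chromatin organiser, the 3 high libraries were alike. Of 15 interneuron genes 4 were separate and lower, namely Reln, Vip, Ndnf and Lamp5 (8.94% of all genes were). Calb1 and Calb2 were separate and higher, a share near the 11.9% of all genes, and the list's median was -0.05. Reln, a secreted guidance protein, stood at 220, 214 and 210 CPM against 257, 439 and 323 CPM.

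Oligodendrocyte genes were modestly higher in the high libraries: 10 of 14 were separate and higher (11.9% of all genes were), none was apart and the median log2 difference was 0.52. Mbp, myelin basic protein, stood at 936, 688 and 694 CPM against 602, 532 and 555 CPM. Ermn, a cytoskeletal protein of myelinating cells, stood at 56.6, 36.8 and 38.4 CPM against 29.1, 23.8 and 28.2 CPM. Control 1 held the most and stress 1 the least of both genes, as in the striatal list. Without these 2 libraries the list's median was 0.27.

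Other cells of vessels, blood and the brain's borders did not part the groups by 2-fold. No member of the lists for meningeal fibroblasts (13 genes), endothelium (16), pericytes and smooth muscle (10), red blood cells (5), microglia (11), border macrophages (3) or astrocytes (14) was apart. Over all genes tested 2.08% were apart and higher and 0.0475% apart and lower, so none in lists this short is near those shares. The median log2 differences of these lists ran from -0.17 for red blood cell genes to 0.11 for border macrophage genes. Plvap, which marks the windowed capillaries found in the choroid plexus, stood at 2.58, 3.49 and 3.419 CPM against 3.06, 4.31 and 3.27 CPM, and its groups overlapped. The other markers of such capillaries, Esm1 and Gpihbp1, had at most 6 counts in any library and did not pass the filter. Fn1, the matrix protein fibronectin, was the meningeal member that was separate and lower, at 24.5, 21.4 and 21.6 CPM against 54.5, 54.1 and 25.6 CPM. Ocln, the tight junction protein occludin, which epithelia also make, was separate and higher in the endothelial list with a log2 difference of 0.75.

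The 7 genes that were apart and lower were Eps8l1, 9130024F11Rik, Usp43, Aox4, Ier2, Klhl38 and Pdlim1. Aox4, Klhl38 and Pdlim1 fall outside the naming rule and are named because the count is small. Eps8l1, an adaptor protein of the actin skeleton, stood at 6.45, 1.16 and 0.503 CPM against 8.98, 8.20 and 8.33 CPM, a log2 difference of -2.23. Control 1 was closer to the low libraries than to the other high ones. 9130024F11Rik stood at 3.18, 4.55 and 5.13 CPM against 13.5, 12.6 and 5.65 CPM, a log2 difference of -1.19. Usp43, a ubiquitin protease, stood at 2.08, 2.03 and 2.51 CPM against 5.31, 7.38 and 2.68 CPM. In the last 2 genes stress 3 lay next to the high libraries. Ier2, the early gene, stood at 0.595, 1.07 and 1.51 CPM against 2.96, 2.05 and 1.79 CPM.

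The stress label was uneven over the groups, with 2 controls and 1 stressed animal in the high group, so the same difference was taken within each label. Of the apart genes 193 (1.31% of all genes) were at least 2-fold higher within the controls and within the stressed animals, and 2 (0.0136%) were 2-fold lower in both, namely Eps8l1 and Klhl38. Among the 193 were 37 of the 38 apart choroid genes, the exception being Rarres2, and 14 of the 19 apart cilia genes. The choroid transport genes had a median of 3.24 within the controls and 5.01 within the stressed animals. The larger value within stress goes with stress 2, which held the most Ttr, set against stress 1 and stress 3, which held the least. The cilia genes had medians of 1.02 and 1.86, and the pan-neuronal genes of -0.19 and -0.21.

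**Figure D5:**
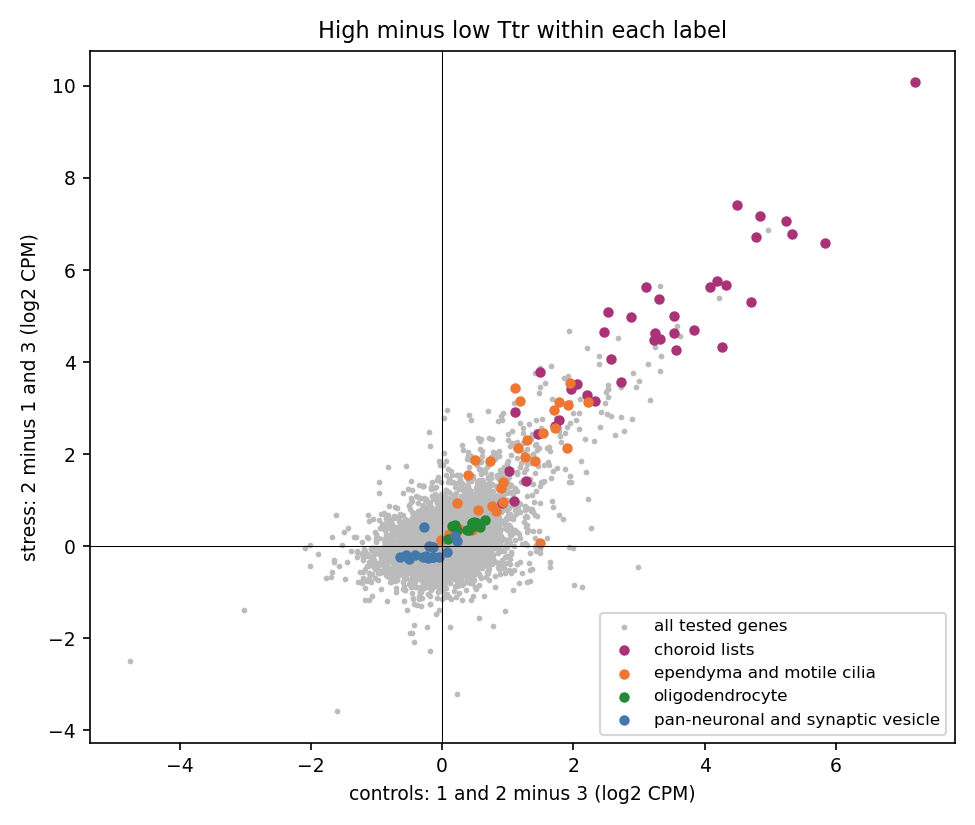
Log2 CPM difference between high-Ttr and low-Ttr libraries within the controls (x axis) and within the stressed animals (y axis). Each point is a gene, grey or coloured by gene list; the choroid and cilia genes lie towards the upper right, with medians of 3.24 and 5.01 for choroid transport and 1.02 and 1.86 for cilia genes.

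The comparison that the labels define, stressed minus control animals, does not rest on the Ttr rule and was tested with the Ttr group as a term. By edgeR's quasi-likelihood test with Benjamini-Hochberg adjustment 0 of 14739 genes passed an adjusted p of 0.05 (0%), where the minimum was 0.999. Before adjustment 511 genes (3.47%) had a p under 0.05, 196 of them higher and 315 lower under stress. DESeq2 with the same design called 1 gene, Hpca, and limma-voom called 0. Without the Ttr term edgeR also called 0 genes, with 496 under 0.05 before adjustment. The biological coefficient of variation was 10.3% with the term and 14.3% without it.

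The gene with the smallest p that was lower under stress was Hpca, the neuronal calcium sensor hippocalcin. It stood at 389, 357 and 388 CPM in controls 1 to 3 and at 297, 267 and 266 CPM in stress 1 to 3, with no overlap between labels. The log2 change was -0.47 with a 95% interval of -0.64 to -0.31 (edgeR adjusted p = 0.999; DESeq2 adjusted p = 0.00587). Hpca did not follow the Ttr split, with a log2 difference of 0.09 and overlapping groups. Acer2, an alkaline ceramidase, was lower by a log2 change of -0.87 and Col3a1, a collagen chain of fibroblasts, by -2.11, with edgeR adjusted p = 0.999 for both. Ndst4, Apaf1 and Dcx were the 3 genes with the smallest p that were higher under stress. Their log2 changes were 0.75, 0.40 and 0.32, none of which passed the threshold.

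The Ttr term moved the stress values of the ventricular genes. Ttr, a member of the secreted list, made the groups, and the high group held more controls than stressed animals. For genes that go with Ttr a shift was therefore set by the choice of groups and says nothing about stress. The median log2 stress change of the choroid transport list was -0.24 without the term and 0.46 with it, and that of the secreted list was -0.31 and 0.37. The cilia list went from -0.38 to 0.01 and the oligodendrocyte list from -0.37 to -0.21. The striatal list stayed low, at -0.82 without and -0.70 with the term, and all 20 of its members were lower under stress in the fit with the term, as were 7319 of all 14739 genes. None of these members passed the threshold. The striatal medians go with stress 1, the library with the lowest striatal level, and control 1, the library with the highest. The part of these 2 libraries in that list's stress change was not tested.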

How the data were processed

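The members and gene lists were chosen with earlier results of these data known. Per the labels, 6 stranded, ribosomal RNA-depleted, single-end libraries shared 1 sequencing pool. Each library's file, as deposited by the authors, holds raw counts for 26264 gene symbols, with no scaling or pooling. Per the submitters' processing notes, which state no roles, the tools were STAR 2.7.7a, HTSeq 0.13.5, FastQC 0.12.1 and edgeR 3.42.4, and the build was mm39. Annotation and strand setting were not given in the sources used, so overlapping and antisense genes are uncertain. Gene coordinates are left out, since the tables at hand are of GRCm38.p6. Promoters come from its RefSeq table, matched by symbol, and stretches that overlap annotated exons are not shown.

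Rows that name no gene were left out of library sizes. They held 53.0 to 57.4% of reads as placed in no gene, 6.97 to 8.16% as placed at several positions and 0.162 to 0.194% as ambiguous. Identical counts in every library made 32 symbols in 15 sets uncertain. Every pair of libraries differed by more than sampling noise, the closest being control 2 and stress 2, at a chi-square per gene of 2.95.

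The counts were handled in edgeR 4.0.16, with DESeq2 1.42.0 and limma 3.58.1 as alternatives, under R 4.3.3. The filter (filterByExpr with the Ttr groups, minimum count 10 and minimum total 15) kept 14739 genes and dropped 11525. CPM were computed here with TMM-scaled library sizes. Of 339 genes in 27 lists 337 were in the files and 317 passed. Stress minus control was fitted with edgeR's robust quasi-likelihood test with the Ttr group as a term, adjusted over all genes. No animal is named in the labels, and p-values measure the spread between these libraries. Genes were named by rule. The rule takes, per direction, the 12 apart genes with the largest difference and a mean of at least 5 CPM in the higher group. It takes the 2 apart members of each list with the largest difference, or where none is apart the most abundant member, and the 5 markers. For stress it takes the 3 genes per direction with the smallest p and a mean of at least 1 CPM. Some genes that the rule takes are not reported here. Other list members are given as examples of their list. Alternatives covered normalization, filters, prior count, fold, tools, the replicate block and each library left out.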

Additional observations from a re-analysis of the deposited data

Results flagged for a closer look

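For 12 results the difference between high-Ttr and low-Ttr libraries had one sign within the controls (controls 1 and 2 against control 3) and the opposite sign within the stressed animals (stress 2 against stress 1 and 3), with every library on its side. The values are the difference within controls minus that within stress, on the log2 scale, and the contrast between labels was not tested. Each rests on 3 libraries per label. They are 7 of 27 lists (25.9%) and 5 of 48 named genes (10.4%), and over all genes tested 15.8% had this pattern, so these counts say nothing particular to the results named.

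Activity-induced early genes had the largest contrast among these 7 lists, at -1.01, from -0.57 within controls to 0.45 within stress. Meningeal fibroblast genes had a contrast of -0.82, from -0.65 to 0.17. Thalamic genes had a contrast of -0.75, from -0.30 to 0.44, and border macrophage genes one of -0.65, from -0.35 to 0.31. For these 4 lists the high libraries were lower within controls and higher within stress. Immature neuron genes went the other way, with a contrast of 0.42. Glucocorticoid-induced genes had a contrast of -0.21 and microglial genes one of 0.17.

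Among single genes, Hbb-bs, a beta-globin chain of red blood cells, had a contrast of -0.72, and Slco1a4, an organic anion carrier of brain endothelium, one of -0.25. Ndst4, a heparan sulfate synthesis enzyme, had a contrast of 0.64 and Apaf1, a scaffold of apoptosis, one of 0.32. Map2, a dendritic microtubule protein, had a contrast of 0.21. No choroid or cilia list was among the 12. Lists that go with Ttr are higher in the high libraries of both labels, so their absence was set by the choice of groups.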

How the results depend on the processing

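With 3 libraries a group chosen by one of their own genes, the size of these differences, not their certainty, is what the data give. Of 324 list medians under other settings 299 moved by less than the spread between libraries and 25 moved further, some of them small medians that changed sign, such as dentate genes (0.25, and -0.12 without stress 1) and microglial genes (0.03, and -0.06 without control 1). For single genes 470 of 484 values moved by less than that spread and 14 further.

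Genes apart (307 higher, 7 lower) numbered 561 and 69 at 1.5-fold and 117 and 1 at 4-fold, and 31 were lower without the filter on low counts. Leaving out a library gave 304 to 408 higher and 9 to 64 lower, the last without stress 3. Genes 2-fold in both labels (193 higher, 2 lower) numbered 380 and 19 at 1.5-fold and 70 and 0 at 4-fold, and 11 were lower without the filter. Leaving out a library gave 175 to 255 higher and 4 to 25 lower. Leaving out control 1 and stress 1 together, a setting chosen after seeing the data, gave 15 apart and lower and 5 lower in both labels. There the medians were 0.27 for oligodendrocyte, -0.14 for pan-neuronal and -0.15 for glutamatergic genes. With a prior count of 0.5 the median was 4.76 for choroid transport genes and 5.07 for choroid transcription factors and keratins. Prior count, fold and filter set these numbers by their construction; for the left-out libraries the cause was not tested.

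Over the libraries left out 1 at a time the medians ran from 3.64 to 4.48 for choroid transport, 3.59 to 4.29 for secreted proteins, 3.35 to 4.08 for transcription factors and keratins, and 1.22 to 1.63 for cilia genes. They ran from 0.34 to 0.61 for oligodendrocyte, -0.24 to -0.17 for pan-neuronal, -0.40 to -0.22 for glutamatergic and 0.15 to 1.07 for striatal genes, the last without control 3.

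The stress count of 0 became 1 with DESeq2 (Hpca). It was 0 to 1 over the libraries left out, with Rn18s called without control 3 and Gh without stress 3. The replicate numbers are shared between labels, and the labels do not say whether they pair the samples. After each label's mean was subtracted, same-numbered libraries had correlations of -0.32, 0.53 and 0.27 over 14616 genes. These correlations cannot decide the pairing, since the libraries of each label also differ in Ttr. With the replicate block added to the Ttr term 7 genes passed (Adra1d, Col3a1, Fibcd1, Hpca, Nrp1, Ptgds and Slc9a4, all lower). That fit had nearly as many terms as libraries, so its estimate of the spread is loose. With the replicate block in place of the Ttr term 0 genes passed. Not every library correlated best with its own number.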

Other observations

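Growth hormone RNA (Gh), a pituitary product, stood at 3.77, 3.29 and 101 CPM in controls 1 to 3 and at 10.2, 0.805 and 2.88 CPM in stress 1 to 3. Control 3, the low-Ttr control, stood above the other 5 libraries. Rn18s, the 18S ribosomal RNA that the depletion targets, stood at 176, 156 and 20.8 CPM in controls 1 to 3 and at 31.1, 22.5 and 30.9 CPM in stress 1 to 3. Control 1 and control 2, both high in Ttr, stood above the other 4 libraries, while stress 2, the third high-Ttr library, did not. Both genes were picked after their values were seen.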
